A study of Mus musculus with 10 samples.

Results

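The genes described here encode the path from glucose uptake through glycolysis to lactate and pyruvate oxidation, together with the enzymes that build and break down glycogen. They are the genes of the table whose symbols stand in a list of 37. Of these, 36 were found among the 12575 genes in the table, and all 36 passed the filter on low values. Slc16a3 is not analysed here. RNA was sequenced from unsorted cerebral cortex tissue, frontal cortex in a figure legend of the study. The labels give 5 Cre- and 5 BMAL1 aKO libraries, while the study's text counts 4 BMAL1 aKO mice. All mice carried Bmal1 fl/fl and were given tamoxifen, and the strain was C57BL/6. The labelled age was 4 months (the study's text gives another age). The BMAL1 aKO mice also carried Aldh1l1-CreERT2, which drives a tamoxifen-inducible recombinase from an astrocyte promoter, and the Cre- mice were littermates without it. The study asked how loss of the clock factor BMAL1 in astrocytes changes the cortex, and for these genes the comparison is BMAL1 aKO against Cre-. Values are CPM (counts of a gene scaled to a common library total), and because the tissue was not sorted, fewer cells of a type and less RNA per cell cannot be told apart.

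Glycolysis splits glucose into pyruvate in the cytosol. Pyruvate is either reduced to lactate or oxidised in mitochondria through the pyruvate dehydrogenase complex, which pyruvate dehydrogenase kinases switch off. In the brain, glycogen is stored mostly in astrocytes, and astrocytes and neurons use different isoforms at several steps: Aldoc (aldolase C), Pygb (brain glycogen phosphorylase) and the lactate transporter Slc16a1 (MCT1) are commonly counted as glial, while the lactate transporter Slc16a7 (MCT2), the glucose transporter Slc2a3 (GLUT3) and Eno2 (neuron-specific enolase) are commonly counted as neuronal.

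BMAL1 is a transcription factor that binds the E-box CACGTG together with CLOCK. The letters CACGTG, which read the same on both strands, were searched in the 250 bases before the RefSeq start site (GRCm38.p6), and 34 of the 36 genes had an entry in the promoter table. They were found for 6 of these 34 genes (17.6%), namely Pfkm, Pfkfb2, Pfkfb3, Ldha, Slc16a1 and Pdk2, against 980 of 9725 genes with an entry (10.1%). Stretches that hold them are shown for 4 genes at control points of the path: Slc16a1 moves lactate across membranes, Ldha encodes a lactate dehydrogenase subunit, Pfkfb3 makes the activator of phosphofructokinase, and Pdk2 inhibits pyruvate dehydrogenase. Each is printed 5′ to 3′ on the strand of its gene with the E-box in capitals, and binding was not measured at any of them. The Slc16a1 and Pdk2 stretches lie before the GENCODE M21 gene, while those of Ldha and Pfkfb3 lie inside it, before an internal start site.
Slc16a1 (chr3:104638437-104638496, + strand): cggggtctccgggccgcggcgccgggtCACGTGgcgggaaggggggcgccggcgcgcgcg
Ldha (chr7:46845729-46845788, + strand): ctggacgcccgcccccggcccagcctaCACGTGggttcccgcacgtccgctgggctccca
Pfkfb3 (chr2:11502111-11502170, - strand): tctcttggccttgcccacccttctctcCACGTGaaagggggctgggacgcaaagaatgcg
Pdk2 (chr11:95041465-95041524, - strand): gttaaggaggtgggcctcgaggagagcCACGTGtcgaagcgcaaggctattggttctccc

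None of the 36 genes passed the test between BMAL1 aKO and Cre- cortex. The limma fit on log2(CPM + 0.5) with an adjusted p threshold of 0.1 called 0 of 36, with a smallest adjusted p of 0.175 for Slc16a1, while it called 42 of 12573 genes tested (0.334%), 0.286% higher and 0.0477% lower. At an unadjusted p under 0.05, 5 of the 36 genes remained (13.9%), 4 lower and 1 higher, against 16.8% of all genes, 10% lower and 6.82% higher. The limma fit without sample quality weights left 0 of 36 at that unadjusted level, against 602 of 12573 genes. With voomWithQualityWeights on whole reads 3 of 36 were left, against 1310 of 12573 genes. Both called 0 of 36 after adjustment, against 4 and 29 of all genes. No gene had groups that did not overlap, where 0.62% of all genes lay wholly higher and 0.382% wholly lower in BMAL1 aKO. The median log2 fold change of the 36 genes was -0.11 against -0.04 over all genes, and 23 of 36 (63.9%) were below 0 against 61.6% of all genes. After TMM scaling, which evens out composition between libraries, the medians were -0.06 and -0.00, and the shares below 0 were 55.6% and 50.7%. The half-width of the 95% interval of the fold change ran from 0.12 for Pfkp to 0.31 for Hk2 on the log2 scale, and the interval lay within 0.5 of no change for 32 of the 36 genes. Cre- replicate 1 had a sample quality weight of 7.19, against 0.181 to 1.52 in the other Cre- libraries, so these estimates and intervals rest largely on that library. The unweighted difference of mean log2 values had the opposite sign for 5 genes, Slc2a1, Hk2, Pfkp, Ldha and Pdhb.

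**Figure D1:**
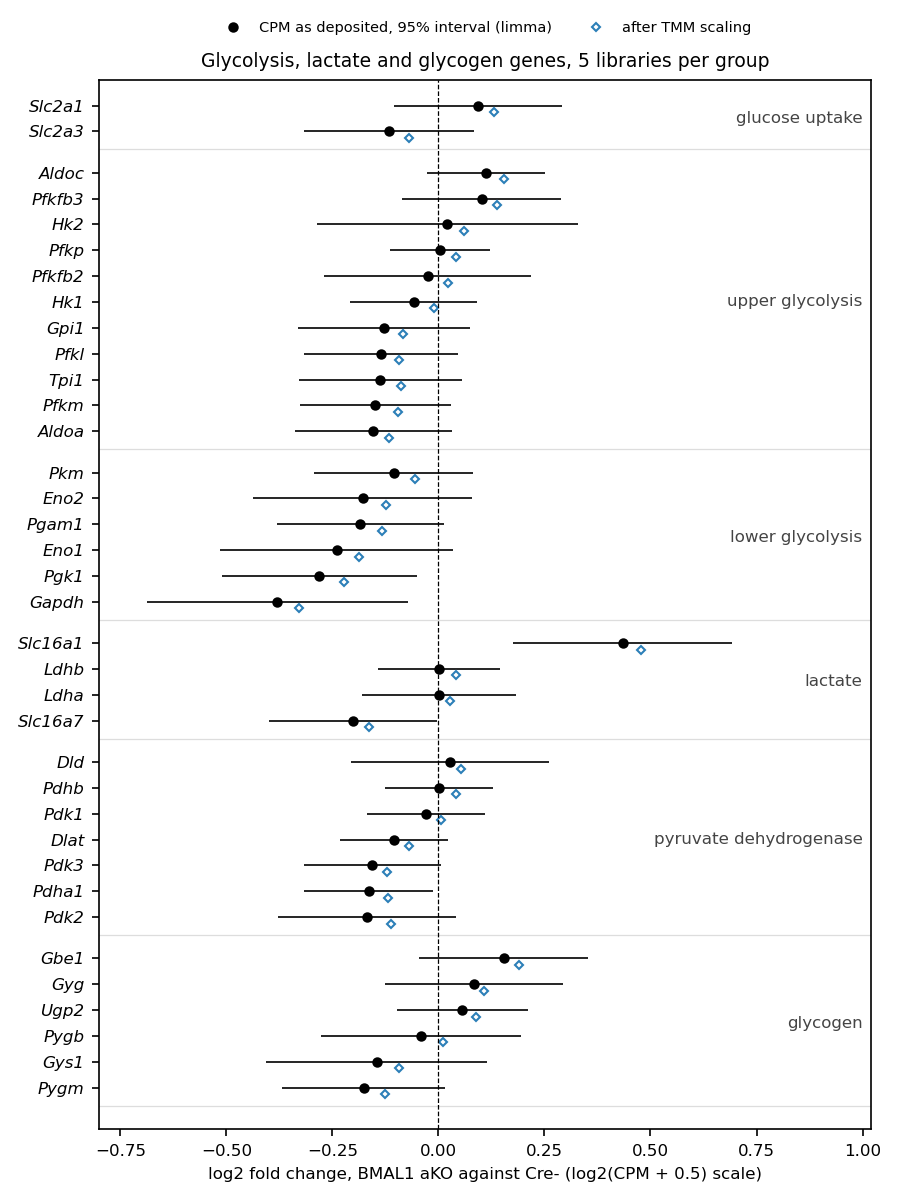
Log2 fold change of BMAL1 aKO against Cre- cortex (x axis) for the 36 genes, grouped by role; filled points with lines are the limma estimate on CPM as deposited with its 95% interval, open diamonds the estimate after TMM scaling. Slc16a1 lies farthest to the right at 0.43 and Gapdh farthest to the left at -0.38, and all 6 lower glycolysis genes lie below 0 on both scales.

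Gene positions and exon lengths given from here on are those of GENCODE M21 (GRCm38). Exons of 13 of the 36 genes, Gapdh and Aldoa among them, share bases with a gene on the other strand, and the unstranded libraries cannot tell such reads apart. Glucose enters through Slc2a1 (GLUT1, in the blood-brain barrier and astrocytes) and Slc2a3. Levels per length, here CPM per kb of all annotated exons of a gene, were 19.8 for Slc2a1 and 12.2 for Slc2a3. These lengths take in every annotated transcript, so levels per length are low for genes with long minor transcripts. Slc2a1 measured 59.4, 58.1, 104.5, 79.2 and 60.9 CPM across Cre- libraries 1 to 5, against 63.4, 74.7, 59.5, 72.7 and 61.2 CPM across the BMAL1 aKO libraries. Slc2a3 had 86.1, 73.5, 136.8, 105.0 and 82.3 CPM in the Cre- libraries and 70.8, 99.7, 84.6, 73.9 and 73.3 CPM in those of BMAL1 aKO. For both transporters Cre- replicate 3 was the highest library and the groups overlapped. The log2 fold change was 0.09 ± 0.09 (SE) for Slc2a1 and -0.12 ± 0.09 for Slc2a3, with limma adjusted p of 0.613 and 0.524, and the value of Slc2a1 was -0.09 without sample quality weights.

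The upper part of glycolysis traps glucose and splits it into triose phosphates. Its 11 genes had log2 fold changes from -0.15 (Aldoa) to 0.11 (Aldoc), 7 below and 4 above 0. Hexokinase was almost wholly Hk1, at 45.0 CPM per kb against 0.591 for Hk2. Of the phosphofructokinase subunits, Pfkm had the highest level per length (76.7 CPM per kb), followed by Pfkp (24.8) and Pfkl (17.6). Pfkp was the steadiest of the 36 genes, with a coefficient of variation of 5.09% over the 10 libraries and a log2 fold change of 0.00 ± 0.05 (SE). The other members of this group, Gpi1 (glucose-6-phosphate isomerase), Tpi1 (triose phosphate isomerase) and the regulators Pfkfb2 and Pfkfb3, had log2 fold changes of -0.13, -0.14, -0.03 and 0.10, and the smallest limma adjusted p in the group was 0.368.

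The aldolases split fructose bisphosphate and gave the group its 2 extremes. Aldoa (chr7:126795234-126800751) had 338.6 CPM per kb and Aldoc (chr11:78322968-78327781) 210.1. Aldoa measured 1044, 830.3, 1368, 1156 and 915.9 CPM across Cre- libraries 1 to 5, against 753.6, 954.7, 949.5, 862.1 and 1022 CPM across the BMAL1 aKO libraries. Aldoc had 634.5, 587.5, 747.6, 749.1 and 632.3 CPM in the Cre- libraries and 695.1, 794.7, 667.2, 674.7 and 674.3 CPM in those of BMAL1 aKO. The lowest Aldoa value was in BMAL1 aKO replicate 1 and the highest Aldoc value in BMAL1 aKO replicate 2, while for both genes most libraries of the groups overlapped. The log2 fold change was -0.15 ± 0.09 (SE, limma adjusted p = 0.370) for Aldoa and 0.11 ± 0.06 (limma adjusted p = 0.380) for Aldoc.

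**Figure D2:**
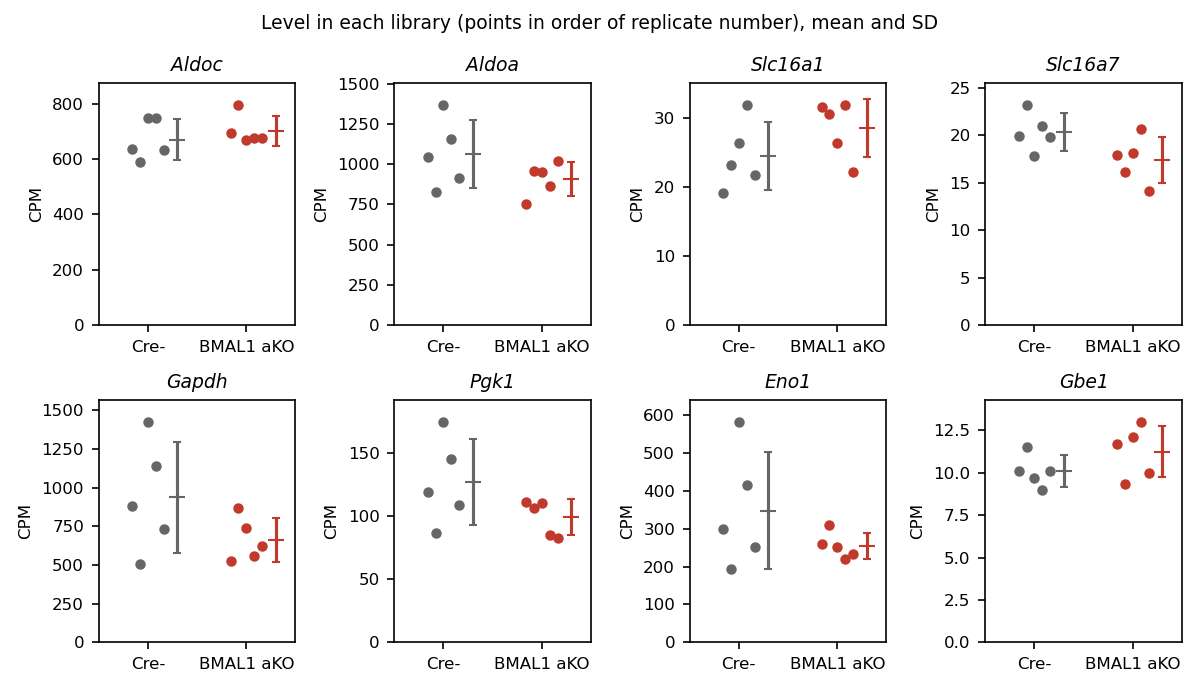
CPM (y axis, from 0) of 8 genes in each of the 5 Cre- libraries (grey) and 5 BMAL1 aKO libraries (red); points stand in order of replicate number and bars give the mean and SD. For Gapdh, Pgk1 and Eno1 the Cre- libraries spread more widely than the BMAL1 aKO libraries, with Cre- replicate 3 highest, and the groups overlap for all 8 genes.

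The lower part of glycolysis turns triose phosphate into pyruvate and yields its ATP. All 6 genes, Gapdh, Pgk1, Pgam1, Eno1, Eno2 and Pkm, were below 0 without passing the test, with a median log2 fold change of -0.21, or -0.16 after TMM scaling. Gapdh (glyceraldehyde-3-phosphate dehydrogenase, chr6:125161715-125166467, 193.5 CPM per kb) measured 883.9, 506.6, 1422, 1141 and 730.6 CPM across Cre- libraries 1 to 5, against 523.2, 869.9, 737.9, 557.3 and 625.7 CPM across the BMAL1 aKO libraries. Every BMAL1 aKO library lay inside the Cre- range, which Cre- replicates 2 and 3 bounded. The mean was 936.8 ± 356.2 CPM (SD, n = 5) in Cre- and 662.8 ± 141.9 CPM in BMAL1 aKO, with a log2 fold change of -0.38 ± 0.14 (SE, limma adjusted p = 0.221) and an exact permutation p of 0.190. Pgk1 (phosphoglycerate kinase, chrX:106187100-106203699) had 119.7, 86.5, 174.6, 145.6 and 109.0 CPM in the Cre- libraries and 111.1, 106.4, 110.9, 84.8 and 82.5 CPM in those of BMAL1 aKO. Its log2 fold change was -0.28 ± 0.11 (SE, limma adjusted p = 0.224). Without BMAL1 aKO replicate 3 it was -0.39 with a limma adjusted p of 0.0875, the single setting in which any of the 36 genes passed. That fit called 844 of 12572 genes, against 42 of 12573 with every library, so the pass is not particular to Pgk1.

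The enolases make phosphoenolpyruvate. Eno1 (chr4:150236721-150248879) had 56.0 CPM per kb and Eno2 95.6. Eno1 measured 298.7, 192.5, 580.5, 415.3 and 251.2 CPM across Cre- libraries 1 to 5, against 259.8, 310.4, 251.6, 220.7 and 233.0 CPM across the BMAL1 aKO libraries. Eno2 had 453.0, 299.2, 789.1, 590.8 and 386.5 CPM in the Cre- libraries and 391.6, 451.5, 436.8, 328.8 and 372.9 CPM in those of BMAL1 aKO. Both were highest in Cre- replicate 3 and lowest in Cre- replicate 2, and Eno1 varied more than any other of the 36 genes, with a coefficient of variation of 38.4%. Log2 fold changes were -0.24 ± 0.13 (SE, limma adjusted p = 0.353) for Eno1 and -0.18 ± 0.12 (limma adjusted p = 0.452) for Eno2. Pgam1 (phosphoglycerate mutase) had -0.18 ± 0.09 and Pkm (pyruvate kinase) -0.11 ± 0.09. Processed copies of Gapdh, Eno1, Pgk1 and other glycolysis genes are common in the mouse genome, so reads can be split between copies and these counts are uncertain to that extent.

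Lactate is formed and used by Ldha and Ldhb, the muscle-type and heart-type subunits of lactate dehydrogenase, and it crosses membranes through Slc16a1 and Slc16a7. Ldhb (303.5 CPM per kb) stood well above Ldha (48.7). Ldha measured 157.2, 164.2, 211.2, 166.9 and 136.1 CPM across Cre- libraries 1 to 5, against 134.6, 152.2, 140.0, 173.9 and 174.3 CPM across the BMAL1 aKO libraries. Ldhb had 499.8, 483.2, 417.6, 437.0 and 489.2 CPM in the Cre- libraries and 490.2, 427.1, 522.3, 464.2 and 535.1 CPM in those of BMAL1 aKO. Cre- replicate 3, the highest library for Ldha, was the lowest for Ldhb. Fold changes were close to 0 on the log2 scale, with 95% intervals from -0.18 to 0.18 for Ldha and from -0.14 to 0.15 for Ldhb.

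The 2 lactate transporters had estimates of opposite sign. Slc16a1 (chr3:104638668-104658462, 5.99 CPM per kb) measured 19.1, 23.3, 26.4, 31.9 and 21.7 CPM across Cre- libraries 1 to 5, against 31.6, 30.6, 26.3, 31.8 and 22.1 CPM across the BMAL1 aKO libraries. Slc16a7 (chr10:125219270-125389465, 1.59 CPM per kb) had 19.9, 23.2, 17.8, 21.0 and 19.8 CPM in the Cre- libraries and 17.9, 16.1, 18.2, 20.7 and 14.1 CPM in those of BMAL1 aKO. For Slc16a1, 3 BMAL1 aKO libraries lay above 30 CPM, and the highest value of all was in Cre- replicate 4, just above them. For Slc16a7 the lowest values were in BMAL1 aKO replicates 2 and 5. The log2 fold change of Slc16a1 was 0.43 ± 0.12 (SE, limma adjusted p = 0.175), the highest of the 36 genes. It was 0.48 after TMM scaling (limma adjusted p = 0.138) and 0.22 without sample quality weights (limma adjusted p = 0.803). Without Cre- replicate 1, the library with the lowest Slc16a1 value and the largest weight, it was 0.20 (limma adjusted p = 0.925, weights not converged). The log2 fold change of Slc16a7 was -0.20 ± 0.09 (SE, limma adjusted p = 0.289), and its exons share 179 bases with a gene on the other strand.

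Pyruvate dehydrogenase is built from Pdha1 and Pdhb (the E1 subunits), Dlat (E2) and Dld (E3), and Pdk1, Pdk2 and Pdk3 encode kinases that inhibit it. Log2 fold changes of the 7 genes ran from -0.17 (Pdk2) to 0.03 (Dld), with 5 below 0. Pdha1 (34.5 CPM per kb) had -0.16 ± 0.07 (SE, limma adjusted p = 0.269), with 133.1 ± 7.89 CPM (SD, n = 5) in Cre- and 124.4 ± 11.4 CPM in BMAL1 aKO. Dlat had -0.10 ± 0.06 (SE, limma adjusted p = 0.375), with 76.8 ± 1.74 CPM (SD, n = 5) in Cre- and 69.3 ± 5.53 CPM in BMAL1 aKO. Dld, the subunit with the highest level per length (38.3 CPM per kb), had 141.4, 203.0, 83.9, 109.5 and 154.1 CPM in the Cre- libraries and 139.3, 119.2, 137.3, 158.5 and 166.0 CPM in those of BMAL1 aKO. It was lowest in Cre- replicate 3 and highest in Cre- replicate 2, the reverse of Gapdh and the enolases. Among the kinases Pdk2 had 32.1 CPM per kb, Pdk3 9.86 and Pdk1 7.67.

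Glycogen is made from UDP-glucose, which Ugp2 supplies, on a primer of Gyg (glycogenin), by Gys1 (glycogen synthase) and the branching enzyme Gbe1, and it is broken down by the phosphorylases Pygb and Pygm. The 6 genes split evenly, 3 above and 3 below 0, and the smallest limma adjusted p was 0.333. Gbe1 (chr16:70313949-70569716), which had the highest estimate of the group, measured 10.1, 11.5, 9.67, 8.98 and 10.1 CPM across Cre- libraries 1 to 5, against 11.7, 9.36, 12.1, 13.0 and 9.996 CPM across the BMAL1 aKO libraries. The estimate was 0.15 ± 0.09 on the log2 scale (SE, limma adjusted p = 0.400). In BMAL1 aKO, 3 libraries were above all Cre- libraries and the other two lay among them. Pygb (25.5 CPM per kb) had 112.4, 84.9, 184.9, 160.1 and 115.3 CPM in the Cre- libraries and 111.0, 142.0, 115.6, 104.8 and 95.8 CPM in those of BMAL1 aKO. Pygm (11.2 CPM per kb) had 35.99, 29.98, 39.6, 49.6 and 38.1 CPM in the Cre- libraries and 39.4, 33.1, 33.1, 32.2 and 28.2 CPM in those of BMAL1 aKO. Log2 fold changes were -0.04 ± 0.11 (SE) for Pygb and -0.18 ± 0.09 for Pygm, the sign of Pygb turned to 0.01 after TMM scaling, and Ugp2, Gyg and Gys1 had 0.06, 0.08 and -0.15.

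A ratio of 2 isoforms within a library does not depend on how the library was scaled. Of 6 ratios compared, Aldoc over Aldoa and Slc16a1 over Slc16a7 had an exact permutation p under 0.05, and neither reached the threshold of 0.1 after Benjamini-Hochberg adjustment over the 6. With 5 against 5 libraries the smallest exact p is 0.00794. Aldoc over Aldoa was 0.608, 0.708, 0.547, 0.648 and 0.691 in Cre- replicates 1 to 5 and 0.922, 0.833, 0.703, 0.783 and 0.660 in BMAL1 aKO. In BMAL1 aKO, 3 libraries lay above every Cre- library, and 5 of 5 lay above the Cre- mean. The log2 difference was 0.28 ± 0.11 (SE), with an exact two-sided permutation p of 0.0397 and an adjusted p of 0.119. Slc16a1 over Slc16a7 was 0.962, 1.004, 1.47, 1.51 and 1.098 in Cre- and 1.75, 1.88, 1.44, 1.53 and 1.55 in BMAL1 aKO. In BMAL1 aKO, 4 libraries lay above every Cre- library, and Cre- replicates 3 and 4 reached the level of BMAL1 aKO replicate 3. The log2 difference was 0.45 ± 0.15 (SE), with an exact permutation p of 0.0317 and an adjusted p of 0.119.

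The other ratios differed less between the groups. Slc2a1 over Slc2a3 differed by 0.15 ± 0.09 on the log2 scale (SE, exact permutation p = 0.159), Eno1 over Eno2 by -0.07 ± 0.06 (exact permutation p = 0.262), Ldha over Ldhb by -0.17 ± 0.18 (exact permutation p = 0.389, and -0.04 without Cre- replicate 3) and Pygb over Pygm by 0.04 ± 0.16 (exact permutation p = 0.770). The 95% interval of the Pygb over Pygm difference, -0.33 to 0.41, overlaps those of Aldoc over Aldoa (0.029 to 0.53) and Slc16a1 over Slc16a7 (0.095 to 0.81). Whether the ratios differ from each other in their change was not tested. Astrocyte markers are given beside the ratios. The sum of 10 marker genes, all measured, ran from 5113 to 6727 CPM in Cre- and from 6354 to 7843 CPM in BMAL1 aKO, which overlap. The log2 difference of the sums was 0.21, with an exact permutation p of 0.0317, not adjusted, the smallest over 9 marker lists. Of the 10, 2 passed the limma test, Gja1 and Ntsr2, both higher. The sum of 10 neuron markers differed by -0.04 (exact permutation p = 0.444). Aldh1l1 itself had a log2 fold change of -0.04 ± 0.10 (SE, limma adjusted p = 0.865). The part of the astrocyte marker level in the ratios was not tested.

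**Figure D3:**
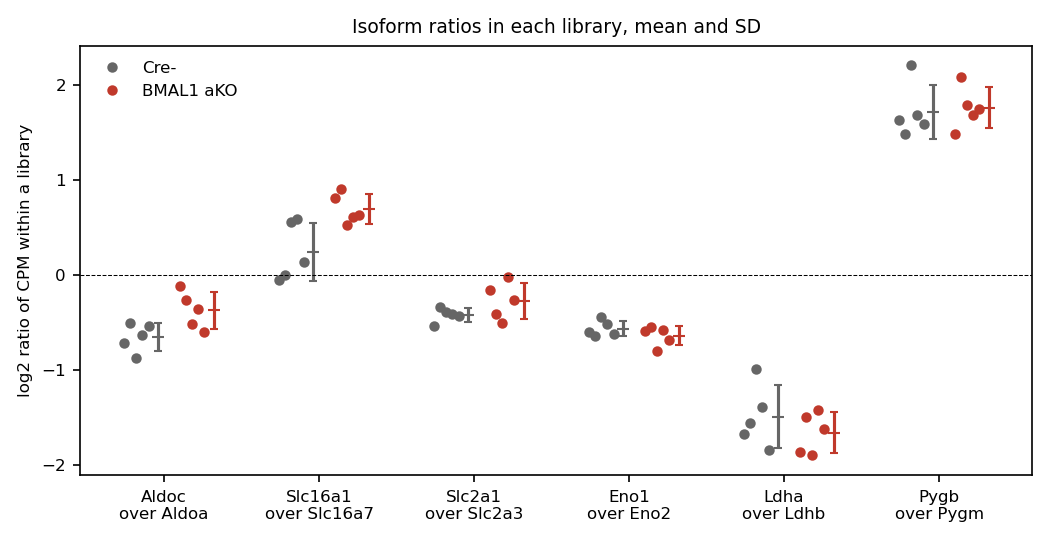
Log2 ratio of the CPM of 2 isoforms within a library (y axis) for 6 pairs, in 5 Cre- (grey) and 5 BMAL1 aKO libraries (red), in order of replicate number, with mean and SD. The groups sit apart most for Slc16a1 over Slc16a7 (difference of the means 0.45) and Aldoc over Aldoa (0.28), with overlap in both.

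Libraries of the same group differed widely in these genes. The 36 genes together took 6466 to 10334 CPM of a library. Cre- replicate 3 held the highest value of 20 of the 36 genes (55.6%), against 39.9% of all genes, and Cre- replicate 2 the lowest of 13 (36.1%, against 28.3%). These were also the libraries with the smallest and largest share of reads on mitochondrial-encoded genes, 6.25% and 20.03%, while the BMAL1 aKO libraries ran from 14.6% to 18.1%. Cre- replicate 3 also had the smallest sample quality weight (0.181) and the highest sum of striatum markers, 1058 CPM against 192.4 to 524.8 CPM in the other libraries. The part of dissection in the levels was not tested.

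Many of the glycolysis genes went down as the mitochondrial share of the libraries went up. Pearson's r of log2(CPM + 0.5) with the mitochondrial share over the 10 libraries, given as a description, had a median of -0.96 over the 6 lower glycolysis genes and -0.82 over the 11 upper ones, against -0.42 over all genes. Of the 36 genes, 15 had an r at or below -0.8 (41.7%, against 28.5% of all genes), among them 5 of the 6 lower and 6 of the 11 upper glycolysis genes. Among the upper genes r was weakest for Pfkp, at -0.42, and Aldoc had -0.62. The lactate genes did not follow this pattern, with r of -0.45 for Ldha, 0.62 for Ldhb, -0.15 for Slc16a1 and 0.07 for Slc16a7. Dld and Ugp2 went the other way, with 0.95 and 0.86. Library, depth and the common total of CPM are shared by all these points.

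**Figure D4:**
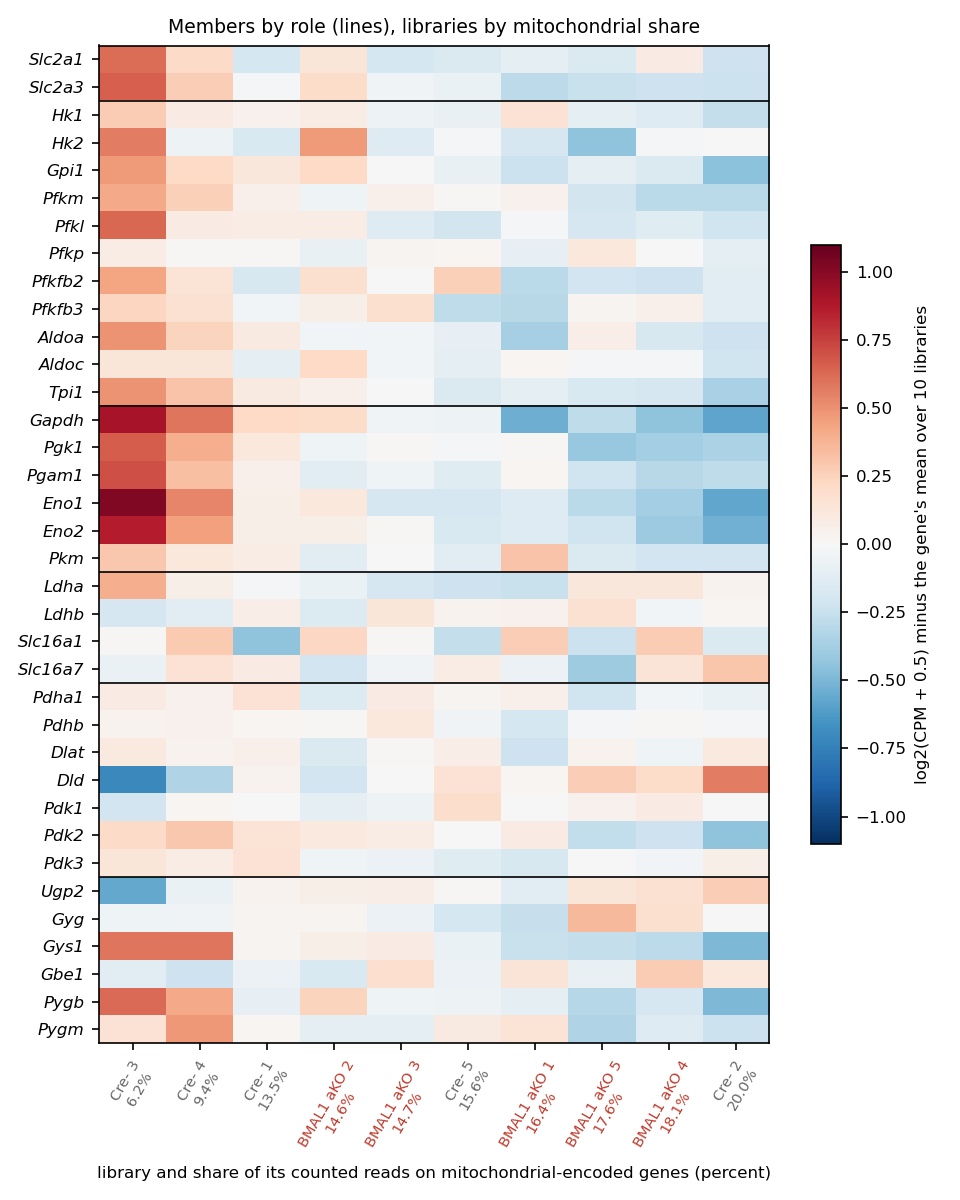
Log2(CPM + 0.5) of each of the 36 genes (rows, by role) minus its mean over the 10 libraries (columns, ordered by the percent of counted reads on mitochondrial-encoded genes, with Cre- names in grey and BMAL1 aKO names in red). Gapdh, Pgk1, Pgam1, Eno1 and Eno2 go from high in Cre- replicate 3 (6.25%) to low in Cre- replicate 2 (20.03%), while Dld and Ugp2 run the other way.

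For Gapdh, singled out for this after its values were seen, r with the mitochondrial share was -0.96 (permutation p = 4e-05, Benjamini-Hochberg adjusted over 2 CPM scales 4e-05) and Spearman's rho -0.96 (permutation p = 5e-05, adjusted 0.0001). With CPM counted over reads outside mitochondrial-encoded genes, r was -0.95 (permutation p = 4e-05) and rho -0.92 (permutation p = 0.00044). Without Cre- replicates 3 and 4, the 2 libraries farthest from the median share, r was -0.88 (permutation p = 0.00572). These p-values, adjusted or not, do not allow for the choice of Gapdh among the 36 genes. Of all genes, 4.27% had an r at or below that of Gapdh over the 10 libraries. With the mitochondrial share as a term of the limma fit, an alternative added after the data were seen, the log2 fold change of Gapdh was -0.04 ± 0.08 (SE, limma adjusted p = 0.878) in place of -0.38, the median of the lower glycolysis genes was -0.01 in place of -0.21, and 15 of the 36 genes were below 0 in place of 23. The median of the 36 genes was then 0.02, as was that of all genes. Slc16a1, whose r with the share was -0.15, had 0.35 ± 0.15 (SE, limma adjusted p = 0.493) in that fit. Gapdh and the lower glycolysis genes followed the share in these same 10 libraries, so their smaller estimates are not separate evidence. The part of the mitochondrial share in the fold changes was not tested. With sex, read from Xist, as a term, Gapdh had -0.20 ± 0.12 (SE, limma adjusted p = 0.620) and Slc16a1 0.39 ± 0.10 (limma adjusted p = 0.333).

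**Figure D5:**
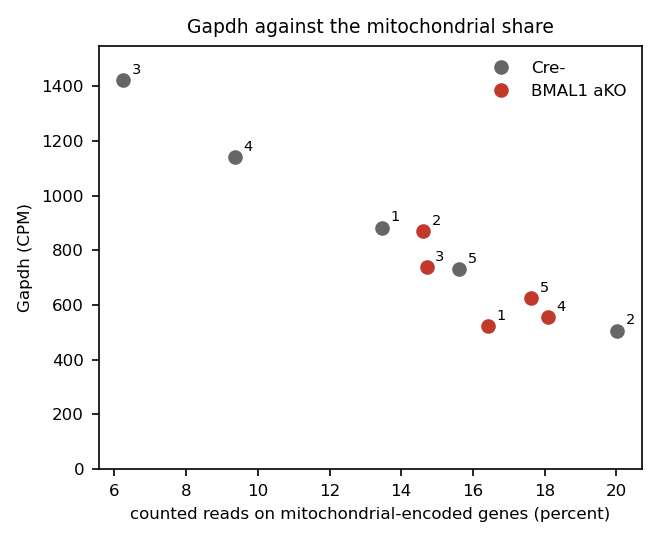
Gapdh in CPM (y axis) against the percent of counted reads on mitochondrial-encoded genes (x axis), 1 point per library, numbered by replicate, Cre- in grey and BMAL1 aKO in red. Gapdh goes from 1422 CPM at 6.25% to 506.6 CPM at 20.03%, both in Cre-, and the BMAL1 aKO libraries lie between.

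Of 80 further genes of glucose, pyruvate, lactate and glycogen metabolism and its regulation, 67 were measured and 0 passed the limma test in either direction, where 0.334% of all genes did. At an unadjusted p under 0.05 there were 8 of 67 (11.9%), 6 lower and 2 higher, against 16.8% of all genes. Pdk4, the pyruvate dehydrogenase kinase of fasting and fat use, had the smallest p of them. It measured 8.08, 9.29, 8.79, 11.5 and 9.06 CPM across Cre- libraries 1 to 5, against 13.4, 12.8, 11.2, 16.9 and 10.4 CPM across the BMAL1 aKO libraries, so that only Cre- replicate 4 reached into the BMAL1 aKO range. Its log2 fold change was 0.55 ± 0.12 (SE, limma adjusted p = 0.123). After TMM scaling it was 0.59 and passed the threshold (limma adjusted p = 0.0882), where 0.541% of all genes did. Pdk4 passed in 5 of 25 alternatives. Besides TMM scaling these were median-of-ratios scaling (limma adjusted p = 0.0943), quantile normalization (0.0992) and CPM over reads outside mitochondrial-encoded genes (0.0829). The last was the fit without BMAL1 aKO replicate 3 (limma adjusted p = 0.0573). It did not pass with voomWithQualityWeights and TMM scaling (limma adjusted p = 0.211), without sample quality weights (0.44, limma adjusted p = 0.803) or with TMM scaling and no weights (0.49, limma adjusted p = 0.836). Prkaa2 (an AMP-activated kinase subunit), Gsk3b (a kinase that inhibits glycogen synthase) and Slc2a13 (a myo-inositol transporter) followed, with log2 fold changes of -0.27, -0.18 and -0.22 and limma adjusted p from 0.183 to 0.210. All 3 passed, as Pdk4 did, without BMAL1 aKO replicate 3, a fit that called 844 genes in all against 42 with every library.

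The labelled deletion cannot be read from these libraries. Arntl, which encodes BMAL1, was at 31.9 to 37.1 CPM in Cre- and 31.1 to 38.8 CPM in BMAL1 aKO, with a log2 fold change of 0.01 ± 0.07 (SE, limma adjusted p = 0.932), and unsorted cortex also holds the neurons and other cells in which the gene was left intact. Libraries held 21844770 to 48295715 counted reads, so that even Hk2, at 2.40 to 5.32 CPM, rested on well over 3 reads in each.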

How the data were processed

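CPM per gene and library are the values the authors deposited, per the labels and the study's methods after alignment with STAR 2.5.1a to Ensembl release 76 (GRCm38) and counting with featureCounts 1.4.6-p5. They hold no TMM scaling, and all values are whole multiples of 1 read (within 0.001 read). Libraries were unstranded. Genes above 1 CPM in at least 4 libraries (12573 of 12575) were fitted as log2(CPM + 0.5) in limma 3.58.1 (R 4.3.3), with sample quality weights, a variance trend and Benjamini-Hochberg adjustment over all genes (threshold 0.1). Fold changes are on that scale and understate those of low genes. Isoform ratios and single values were tested by two-sided exact permutation. Exon lengths came from GENCODE M21. All 10 libraries were used, although the study's text counts 4 BMAL1 aKO mice without naming the one left out. The authors tested with limma voomWithQualityWeights after TMM in edgeR and removed ribosomal genes, a step not repeated. Every measured gene is named by role. Values per library are given for genes of the 6 ratios, the 3 largest estimates in each direction and the highest level per length of each role. The members and lists were chosen with earlier results of these data known. Nothing in the labels says that the numbered replicates are more than separate samples, so p-values measure the spread between these libraries. Replicates of 1 group differed by more than sampling noise (chi-square per degree of freedom 12.9 to 447.4). Same replicate numbers did not pair libraries (r from -0.63 to 0.36 over 5 pairs).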

Additional observations from a re-analysis of the deposited data

Results flagged for a closer look

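Of 84 groups of 5 libraries tested for a value far from the others (gap over range above 0.71), 3 were marked, and chance marks about 1 in 20. Hk2 in Cre- replicate 3 was at 5.32 CPM, where the next highest Cre- library was at 3.43 CPM. Aldoc in BMAL1 aKO replicate 2 was at 794.7 CPM, where the next was at 695.1 CPM. Pygb over Pygm in Cre- replicate 3 was at 2.21 on the log2 scale, where the next was at 1.68.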

How the results depend on the processing

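The count of called genes among the 36 stayed at 0 in every setting run except without BMAL1 aKO replicate 3, where it was 1. Leaving out 1 library at a time gave 0 to 1 called among the 36 genes, 0 to 4 among the other pathway genes, and 1 to 844 over all genes, the extremes being without Cre- replicate 1 and without BMAL1 aKO replicate 3. Weights did not converge without Cre- replicate 1 and without Cre- replicate 5. Over all genes 42 were called, against 4 without weights (with or without TMM scaling), 68 after TMM scaling or over reads outside mitochondrial-encoded genes, 65 after quantile normalization, 22 with a sex term and 20 at an adjusted p of 0.05. TMM scaling, median-of-ratios scaling, quantile normalization and CPM over reads outside mitochondrial-encoded genes each called 1 of the other pathway genes, Pdk4. The replicate numbers did not pair the libraries, and 7 genes were called with the replicate block, 0 of them among the 36; the exact sign-flip p was then 0.125 for Aldoc over Aldoa and 0.188 for Slc16a1 over Slc16a7, where 0.0625 is the smallest 5 pairs allow. With the block the log2 fold change was 0.18 for Slc16a1 and 0.36 for Pdk4.

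Of the 36 genes, 14 kept their sign in all 26 settings fitted over all genes. Of the 22 that turned sign in some setting, none was called. In 14 of them the values are given by their extremes alone, the largest being -0.25 for Hk2, 0.11 for Gpi1, 0.068 for Tpi1 and 0.066 for Hk1, and the other 8 follow. Hk2 did not pass the filter at 5 CPM. Slc2a1 had -0.094 without weights, -0.030 with the replicate block and -0.043 with TMM scaling and no weights. Ldha had -0.10 without weights, -0.045 with the sex term and -0.051 with TMM scaling and no weights. Dld had -0.069 with the sex term. With the mitochondrial share as a term, Slc2a3 had 0.024, Eno1 0.046, Eno2 0.072, Ldhb -0.018, Dld -0.19 and Pygb 0.11. Pygb also had 0.011 after TMM scaling, 0.0049 after median-of-ratios scaling, 0.018 after quantile normalization, 0.046 with the sex term, 0.0082 over reads outside mitochondrial-encoded genes and 0.014 with TMM scaling without Cre- replicate 3. With 1 library left out, the ranges were -0.015 to 0.15 for Slc2a1, -0.077 to 0.085 for Ldha, -0.026 to 0.058 for Ldhb, -0.050 to 0.12 for Dld and -0.14 to 0.039 for Pygb. The causes were not tested.

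With 1 library left out, Aldoc over Aldoa differed by 0.22 to 0.34 and passed the threshold in 2 of 10 cases (without Cre- replicate 2 and without BMAL1 aKO replicate 3), Slc16a1 over Slc16a7 by 0.38 to 0.54 and in 4 of 10 (those 2 and without Cre- replicates 3 or 4), Slc2a1 over Slc2a3 by 0.085 to 0.20 and in 1 of 10 (without BMAL1 aKO replicate 3), Pygb over Pygm by -0.041 to 0.16, Ldha over Ldhb by -0.26 to -0.042 and Eno1 over Eno2 by -0.098 to -0.035, with adjusted p from 0.0794 upward. Without both Cre- replicates 2 and 3, Aldoc over Aldoa differed by 0.26 (exact permutation p = 0.0714, adjusted 0.214). Slc16a1 over Slc16a7 then differed by 0.47 (exact permutation p = 0.0357, adjusted 0.214). The part of the mitochondrial share in the ratios was not tested. Alternatives with the mitochondrial share, reads outside mitochondrial-encoded genes, TMM without weights and TMM without Cre- replicate 3 were chosen after seeing the data. The count tests of edgeR and DESeq2 were planned and not run. Libraries of 1 group differed by more than counting noise, so depth was not the only limit on what could be detected.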

Other observations

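Gapdh is widely used to normalise expression assays. It varied over the 10 libraries by 2.81 times from lowest to highest, with a coefficient of variation of 36.7%, and 8 of the 208 genes with a mean of at least 500 CPM varied more. Actb, another common reference gene, varied by 1.71 times (17.8%), and 65 of those 208 genes varied more. Both were lowest in Cre- replicate 2 and highest in Cre- replicate 3. The log2 fold change of Actb was -0.16 ± 0.09 (SE, limma adjusted p = 0.382).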
